A study of Canis lupus familiaris with 2 samples.

Results

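The miR-15/16 family was examined in canine mammary gland tumour cells (SNP cells) grown as spheroids or as an adherent monolayer. Its members were taken by name from the array: cfa-miR-15a, cfa-miR-15b, cfa-miR-16, cfa-miR-195, cfa-miR-497, cfa-miR-424 and cfa-miR-503, which are 7 of 291 dog miRNAs, with 1 spot and 1 arm each. The spheroid sample came from floating cells that were picked out of the culture medium and grown with no matrix added, the monolayer sample from attached cells in serum-containing RPMI-1640, and both were detached with trypsin before total RNA was taken. Each culture gave 1 sample on 1 array, with an RNA integrity of 9.7 for the spheroids and 9.8 for the monolayer. No difference has a replicate check, no p-value was computed, and the selection of floating cells and the culture form cannot be told apart. Fewer cells of a type and less RNA per cell cannot be told apart either.

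MicroRNAs of this family pair with messenger RNAs mainly through their seed, the stretch near the 5′ end, which miR-15a, miR-15b, miR-16, miR-195, miR-497 and miR-424 share and miR-503 carries in a closely similar form. Their known targets in human cells include the messages of cyclin D1, cyclin E1, the kinases CDK6, CHEK1 and WEE1 and the survival protein BCL2, and raised levels hold cells before DNA replication. They are made from gene pairs, each copied as 1 primary transcript. Human MIR15A and MIR16-1 are often deleted in chronic lymphocytic leukaemia. In the mouse, the counterparts of miR-424 and miR-503 take part in the regression of the mammary gland after lactation. miR-16 is often used as a reference in miRNA assays.

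In the RefSeq annotation of dog assembly UU_Cfam_GSD_1.0, MIR15A and MIR16-1 stand next to each other inside the gene LOC102156997. MIR15B and MIR16-2 stand next to each other inside SMC4, which encodes a condensin subunit needed for chromosome packing. MIR195 and MIR497 are neighbours between C5H17orf49 and BCL6B. MIR503 and MIR424 are neighbours too, in a row with MIR450B, MIR450A and MIR542 between HPRT1 and PLAC1. Mature miR-16 is made from 2 loci, so its signal cannot be split between the first 2 pairs.

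The blank spots had a mean intensity of 76.7 with an SD of 1.55 on the spheroid array and 85.1 with an SD of 2.37 on the monolayer array. A miRNA counted as detected above the mean plus 2 SD, at 79.8 on the spheroid array and 89.8 on the monolayer array. Of the 291, 178 passed on both. Of all blank spots, 8.10% on the spheroid array and 7.10% on the monolayer array lay above these limits too. The SD left out the highest and lowest 5% of blank spots, so ranges below in blank SDs are on the narrow side. Epithelial markers were present: all 6 (miR-200a, miR-200b, miR-200c, miR-141, miR-429 and miR-205) were detected on both arrays, with summed deposited intensities of 1359 in the spheroids and 900.4 in the monolayer. They did not move together. miR-205, a marker of basal epithelium, had deposited intensities of 27.6 in the spheroids and 170.0 in the monolayer. Its log2 difference of -1.90 on the normalized scale was the lowest of all 178. The other 5 were higher in the spheroids on both scales, as were 44.9% of the 178 in the normalized values and 50.6% in the deposited values. Only 4 of them were higher with median scaling and 3 with 75th percentile scaling, beside 50% and 30.9% of the 178. Of these 5, miR-200a and miR-200b had normalized log2 differences of only 0.01 and 0.08. Both lay under the blank mean plus 5 SD on the monolayer array. Of 17 markers of muscle, blood, endothelium, stroma, liver and nerve on the array, 9 were detected in the spheroids and 8 in the monolayer. Of all 291 miRNAs, 69.1% were detected in the spheroids and 61.9% in the monolayer. The summed deposited intensities of the markers were 73.0 in the spheroids and 112 in the monolayer. miR-133a, miR-133b, miR-133c and miR-206 of muscle, miR-150 and miR-223 of blood, and miR-199 and miR-214 of stroma were detected on both arrays. All 8 were lower in the spheroids on both scales, beside 54.5% of the 178 lower in the normalized values and 50.6% higher in the deposited values. Scaling to the spike controls put 4 of the 8 and 70.8% of the 178 above 0. Several were near the floor. On the spheroid array miR-133a, miR-133c, miR-150 and miR-206 lay under the blank mean plus 5 SD. On the monolayer array miR-133a, miR-150 and miR-223 did. miR-122 of liver was detected in the spheroids only. miR-1, miR-142, miR-144, miR-451, miR-126, miR-143, miR-145 and miR-124 were detected on neither array. The part of these markers in the results below was not tested.

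Of the 7 family members, 4 were well above background and higher in the spheroids, 2 were dim and lower there, and 1 was detected on neither array. miR-15a read a raw intensity of 336 in the spheroids and 204 in the monolayer. miR-15b read 260.3 in the spheroids and 160.3 in the monolayer. These 2 are the first-named partners of the leukaemia-linked pair and of the pair inside SMC4. miR-195 read 264 in the spheroids and 170 in the monolayer. miR-16, with which both miR-15 forms are paired, read 1920 in the spheroids and 994 in the monolayer. All 4 were thus brighter on the spheroid array before any correction, although the blank spots were dimmer on that array.

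**Figure D1:**
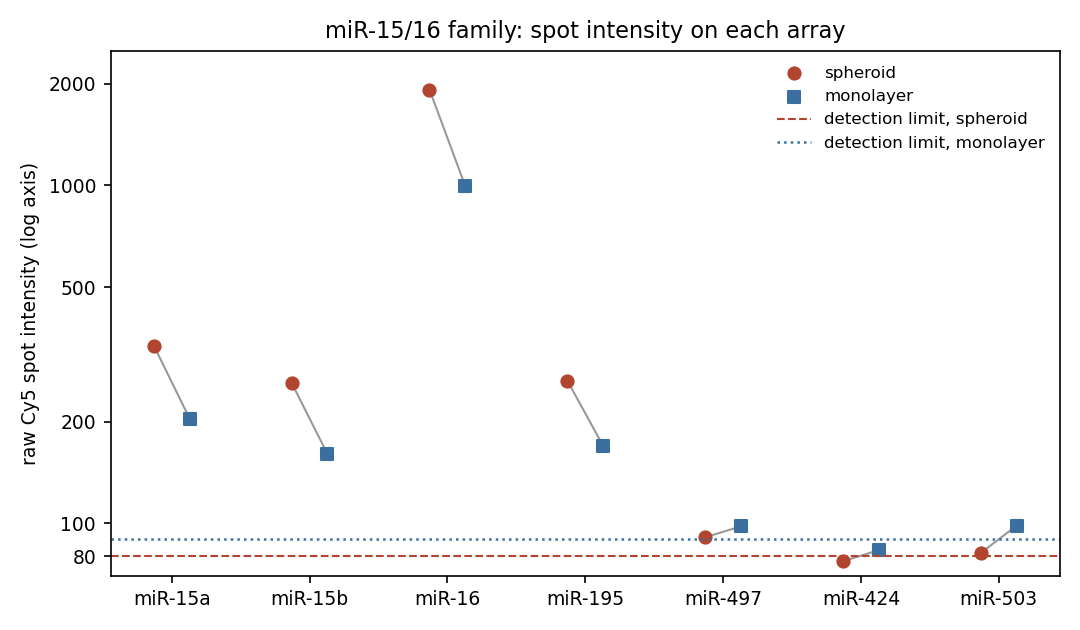
Raw Cy5 intensity of the 7 family spots on a log axis, with 1 circle per miRNA for the spheroid array and 1 square for the monolayer array, and each array's detection limit as a broken line. miR-15a, miR-15b, miR-16 and miR-195 lie far above both limits and higher in the spheroids, miR-497 and miR-503 lie just above the limits, and miR-424 lies under both.

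The intensities were background corrected, put on a log2 scale and normalized so that both arrays had the same distribution of miRNA values. On that scale miR-15b was higher in the spheroids by 0.63, miR-195 by 0.54, miR-15a by 0.46 and miR-16 by 0.45, or 1.55-fold, 1.46-fold, 1.37-fold and 1.37-fold. The median over the 6 members detected on both arrays was 0.45, against -0.05 over all 178 miRNAs detected on both. For control probes printed repeatedly, the log2 difference between the arrays varied from spot to spot with an SD of 0.065 (the spot SD). It was taken after background correction and before the distributions were matched. It is thus only a rough yardstick for the normalized differences. The 4 differences above were 6.91 to 9.72 times that SD. This measure covers spot error only and no variation between cultures.

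The share of the 6 members that was higher, 4, stands beside 44.9% of all 178 miRNAs higher in the spheroids. All 4 were higher by more than 2 spot SDs, as were 32.6% of the 178. 1 member, miR-503, was lower by more than 2 spot SDs, as were 36.0% of the 178. None of the 6 was 2-fold or more apart on this scale, where 5.06% of the 178 were. From the largest increase in the spheroids downwards, miR-15b ranked 12th of the 178, miR-195 20th, miR-15a 24th, miR-16 25th, miR-497 99th and miR-503 129th.

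**Figure D2:**
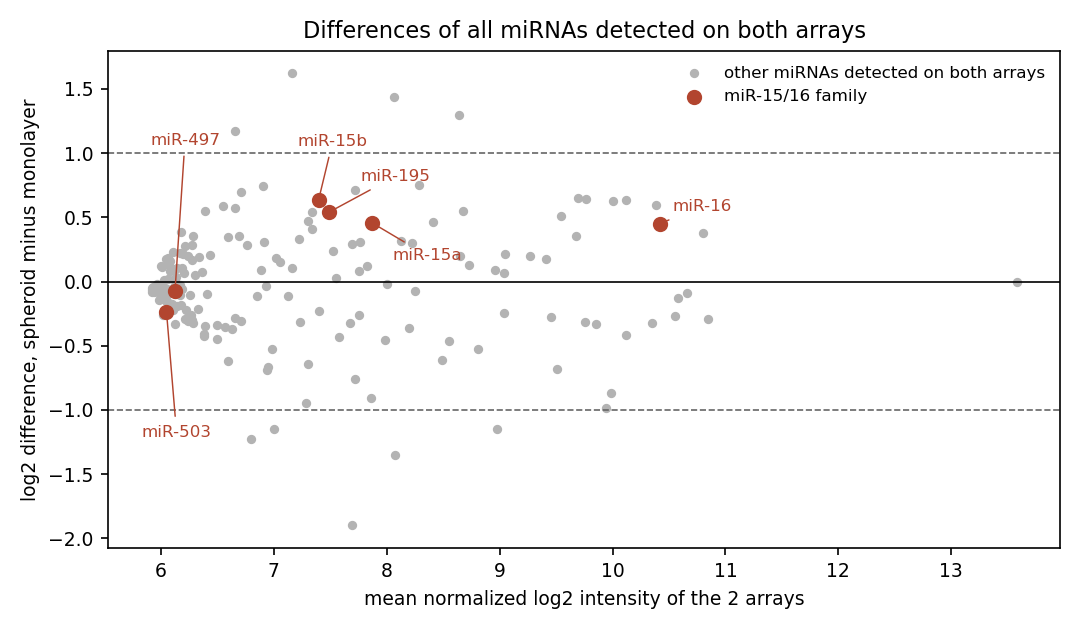
Log2 difference, spheroid minus monolayer, against the mean normalized log2 intensity of the 2 arrays for the 178 miRNAs detected on both, with the 6 family members labelled in red and 2-fold differences marked by dashed lines. The 4 brighter members lie between 0.45 and 0.63, and miR-497 and miR-503 lie at the dim end, at -0.07 and -0.23.

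In the authors' deposited values, from which the blank mean has been subtracted without an added offset, the same differences were wider. miR-15b had a deposited intensity of 91.4 in the spheroids and 45.9 in the monolayer, a ratio of 1.99. miR-195 had 93.4 in the spheroids and 51.5 in the monolayer, a ratio of 1.81. miR-15a had 129 in the spheroids and 72.6 in the monolayer, a ratio of 1.77. miR-16 had 917 in the spheroids and 555 in the monolayer, a ratio of 1.65. None of the 4 reached 2-fold, where 12.9% of the 178 were 2-fold or more higher in the spheroids and 50.6% were higher by any amount. Moving both spots by 2 blank SDs in opposite directions gave ratios of 1.84 to 2.16 for miR-15b, 1.69 to 1.95 for miR-195, 1.69 to 1.87 for miR-15a and 1.64 to 1.66 for miR-16. A move of that size spans the 2-fold mark for miR-15b and for none of the other 3.

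miR-497, the partner of miR-195, was close to background. Its raw intensity was 90.9 in the spheroids, 9.16 blank SDs above the blank mean, and 97.9 in the monolayer, 5.43 blank SDs above it. Its normalized log2 difference was -0.07, or 1.08 spot SDs below 0, and its deposited intensity was 7.06 in the spheroids and 7.84 in the monolayer. Moving both spots by 2 blank SDs gave deposited ratios of 0.514 to 1.74, a range that holds 1. The spot-level error thus does not settle a direction for miR-497.

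The differences of miR-195 and miR-497 lay 0.61 apart on the normalized scale and 1.01 apart in the deposited values, both log2. Under moves of 2 blank SDs the deposited ratios ran from 1.69 to 1.95 for miR-195 and from 0.514 to 1.74 for the dim miR-497. These ranges overlapped at their edges. The upper end for miR-497 lay below the miR-195 ratio of 1.81, so they meet only when the spots of both miRNAs are moved. The pair inside SMC4 lay closer: miR-15b and miR-16 differed by 0.18 on the normalized scale and 0.27 in the deposited values. miR-15a and miR-16 differed by 0.01 and 0.10. Grouped by gene pair, the median normalized difference was 0.54 for miR-15b with miR-16, 0.45 for miR-15a with miR-16 and 0.24 for miR-195 with miR-497.

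miR-503 was the member furthest in the other direction. Its raw intensity was 81.7 in the spheroids, 3.20 blank SDs above the blank mean and under the stricter limit of 5 SD at 84.5, and 98.4 in the monolayer, 5.63 blank SDs above the mean. The normalized log2 difference was -0.23, or 3.58 spot SDs below 0. Its deposited intensity was 2.47 in the spheroids and 8.14 in the monolayer, a ratio of 0.303, which placed it 173rd of the 178. It was the only member 2-fold or more lower in the deposited values, where 14.0% of the 178 were.

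Moving both miR-503 spots by 2 blank SDs gave deposited ratios of 0.0836 to 0.763, all below 1. A spot lying exactly at the detection limit would have a deposited intensity of 1.54 on the spheroid array and 2.89 on the monolayer array, so a miRNA at the limit on both arrays would read lower in the spheroids on this scale. When the arrays were instead scaled to their 16 spike control spots, the ratio of miR-503 was 0.462 and its range of 0.128 to 1.17 held 1.

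miR-424, the partner of miR-503, was at background. Its raw intensity was 77.2 in the spheroids, 0.31 blank SDs above the blank mean, and 83.3 in the monolayer, 0.76 blank SDs below it. No fold is given, since both spots lay under their limits. The 3 further miRNAs of the same row on the array were as dim. miR-542 read 76.5 in the spheroids and 83.6 in the monolayer, and miR-450b read 76.7 in the spheroids and 85.3 in the monolayer, all under the limits. miR-450a read 80.4 in the spheroids, just above the limit there, and 89.1 in the monolayer, just under it. Of the 5 miRNAs of that row, miR-503 alone was detected on both arrays.

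The local background was also read from the blank spots of each block. The median blank of the block of spots holding each member lay within 2 blank SDs of the array's blank mean for all 7 members on both arrays. Every other block did too, with medians of 75.1 to 79.5 on the spheroid array and 81.4 to 88.9 on the monolayer array. This limit thus says nothing particular about the family spots. Around miR-503 the block median was 76.0 on the spheroid array and 87.2 on the monolayer array. Subtracting such block medians before normalization gave miR-503 a log2 difference of -1.38 and miR-497 one of -0.31. With the blank mean subtracted instead, they were at -1.66 and -0.38. miR-15b and miR-195 are printed side by side in 1 block and share its blank median.

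The direction of the 4 brighter members did not depend on the background treatment or the scaling. Over the 11 settings, the normalized values and 10 alternatives, miR-15a lay between 0.41 and 1.44 on the log2 scale, miR-15b between 0.47 and 1.60, miR-16 between 0.44 and 1.33 and miR-195 between 0.40 and 1.47. The highest value of each came from scaling to the spike controls, which lifted the median of all 178 miRNAs to 0.61 and put 70.8% of them above 0. With that scaling the ratios were 3.04 for miR-15b, 2.77 for miR-195, 2.71 for miR-15a and 2.52 for miR-16, all past 2-fold, where 38.8% of the 178 were 2-fold or more higher. With miR-503, 5 of the 6 members were 2-fold or more apart in that setting, beside 42.1% of the 178. miR-503 stayed below 0 in all 11 settings, between -1.72 and -0.17. miR-497 was below 0 in 10 and at 0.46 with the spike controls.

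Set against the median of all 178 miRNAs in the same setting, the pattern was steadier than the values, in part by construction. Settings that differ only by a constant per array must give the same ranks and the same distance to that median. Median, 75th percentile and no scaling thus all gave a family distance of 0.71, and deposited values and spike control scaling gave 0.77. In each of the 11 settings 4 members lay above that median, and the family median exceeded it by 0.46 to 0.77. The ranks among the 178 were 12 to 24 for miR-15b, 17 to 35 for miR-195, 19 to 43 for miR-15a and 14 to 51 for miR-16. They were 99 to 109 for miR-497 and 127 to 173 for miR-503.

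**Figure D3:**
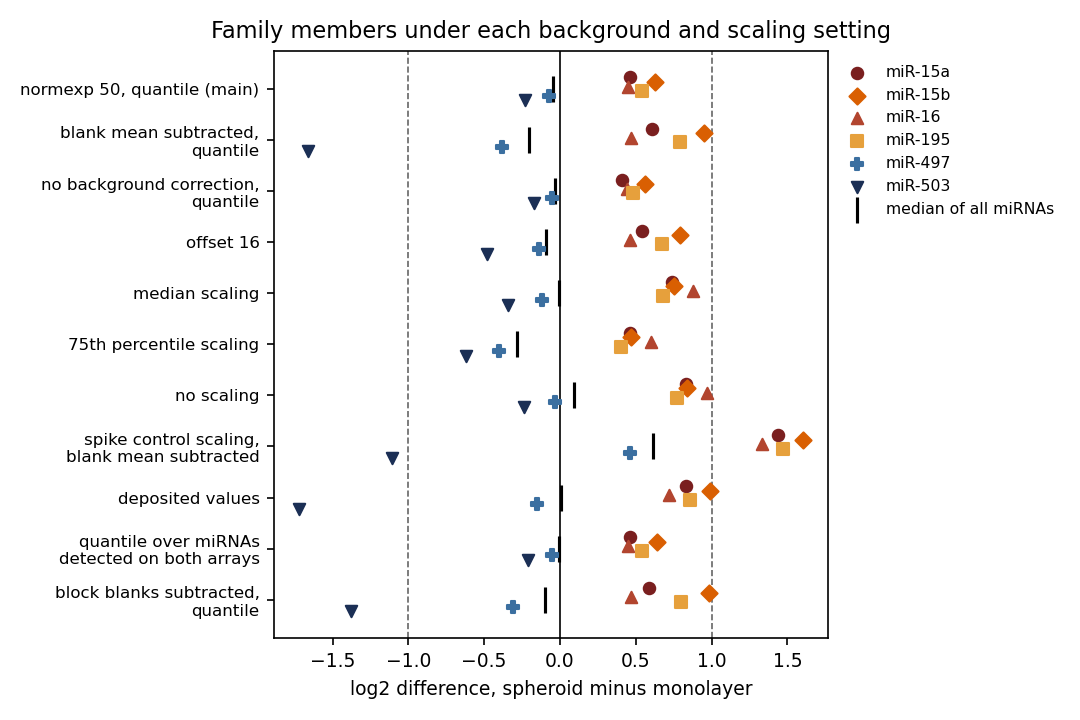
Log2 difference, spheroid minus monolayer, of the 6 members detected on both arrays under 11 background and scaling settings, with a black bar for the median of all 178 miRNAs and dashed lines at 2-fold. miR-15a, miR-15b, miR-16 and miR-195 lie right of the bar in every row, and miR-497 and miR-503 lie left of it.

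miR-103 and miR-107 have a seed that overlaps the family's with a shift of 1 base, and are known for effects on insulin sensitivity in the mouse. miR-103 had a deposited intensity of 283 in the spheroids and 216 in the monolayer. miR-107 had 234 in the spheroids and 175 in the monolayer. Their normalized log2 differences were 0.09 and 0.13, neither past 2 spot SDs and both smaller than those of the 4 brighter family members in every setting. They were above 0 in all 11 settings.

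The family can be read beside other miRNAs with known roles in the cell cycle, in lists chosen with earlier results of these data known. Of 17 other growth-restraining miRNAs on the array, which comprise let-7 members and miR-98, the miR-34 group, miR-192, miR-194, miR-215, miR-26a, miR-26b and miR-107, 13 were detected on both arrays. Among these 13, 10 were higher in the spheroids, 9 of them by more than 2 spot SDs, and 3 were lower, none by more than 2 spot SDs. Of all 178, 44.9% were higher, 32.6% were higher by more than 2 spot SDs and 36.0% lower by more than 2. The list had a median log2 difference of 0.54. miR-26b, which in human cells represses the message of the kinase CDK6, led the list with a deposited intensity of 230.0 in the spheroids and 56.6 in the monolayer. Next came miR-26a, a repressor of EZH2, with 330.1 in the spheroids and 103 in the monolayer, and let-7e, of the RAS-repressing let-7 family, with 568 in the spheroids and 321 in the monolayer.

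The growth-promoting miRNAs of the miR-17-92 cluster and its relatives, with miR-221 and miR-222, had 15 of 16 members detected on both arrays. Of these, 12 were lower in the spheroids, 11 by more than 2 spot SDs, and 3 were higher, 2 by more than 2 spot SDs, for a median of -0.32. Of all 178, 54.5% were lower and 36.0% were lower by more than 2 spot SDs. miR-221, which represses the cell cycle inhibitor p27, had the largest difference at -0.87, with deposited intensities of 412 in the spheroids and 641 in the monolayer. miR-19a, of the miR-17-92 cluster, was at -0.61 and miR-222, which shares its seed with miR-221, at -0.46. The sign of this list depended on the scaling. Scaled to the spike controls, its median was 0.46 and 13 of the 15 were higher, beside a median of 0.61 and 70.8% of the 178. The list median was 0.08 with no scaling, -0.01 with both arrays scaled to their median and -0.29 with 75th percentile scaling. Over all 178 the medians there were 0.09, -0.0043 and -0.28. Without quantile normalization or blank subtraction, the list thus lay level with the other miRNAs. The growth-restraining list stayed above 0 in these settings, at 1.44 with the spike controls, 1.02 with no scaling, 0.93 with median scaling and 0.65 with the 75th percentile.

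**Figure D4:**
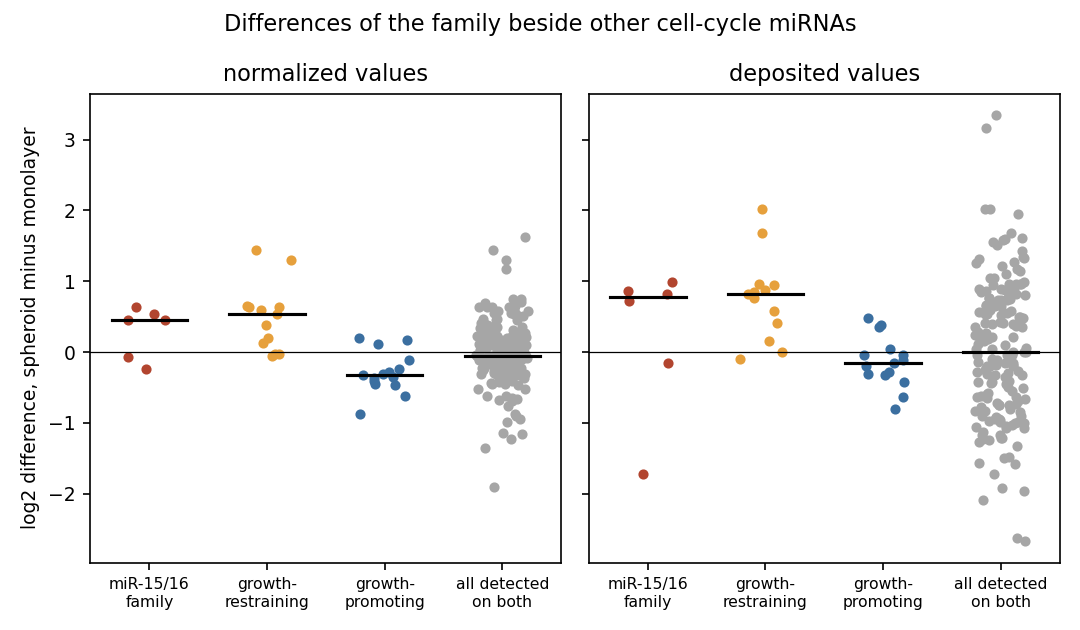
Log2 difference, spheroid minus monolayer, of the miRNAs detected on both arrays, in the normalized values (left) and the authors' deposited values (right), with 1 point per miRNA, random sideways spread and a black line at each median. The medians are 0.45 and 0.78 for the family, 0.54 and 0.83 for the growth-restraining list, -0.32 and -0.15 for the growth-promoting list and -0.05 and 0.00457 for all 178 miRNAs.

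The miRNAs outside the family whose normalized difference was nearest to the family median of 0.45 over the 2 arrays were miR-30a, miR-331 and miR-301a, at 0.46, 0.47 and 0.41. miR-30a had a deposited intensity of 209 in the spheroids and 113 in the monolayer. miR-331 had 76.6 in the spheroids and 45.0 in the monolayer. miR-301a had 77.1 in the spheroids and 47.8 in the monolayer.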

How the data were processed

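Total RNA from 1 spheroid and 1 monolayer sample was labelled with Cy5 and hybridised to 1 single-colour array each, per the labels. For each of 3200 spots, the authors deposited the median Cy5 intensity from the scanner, neither background corrected nor normalized, beside a second column headed as background, which was not used. Their value table has normalized intensities, per the values themselves. Set against the scanner values, these equal the intensity minus the blank mean, times 0.498 for the spheroids and 0.611 for the monolayer, within 0.0257%; the cells left empty are those under the detection limit. The scanner model is not given in the sources used here.

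Blank statistics came from 1268 of 1408 blank spots, after dropping 5% at each end. For the normalized values, all spots were corrected with limma's normexp method (limma 3.58.1, R 4.3.3; offset 50, which pulls differences of dim spots towards 0), and the 291 miRNAs were quantile normalized on the log2 scale in Python 3.11.15 with numpy 2.4.6 and pandas 2.3.3. Plots used matplotlib 3.10.9. These steps were tested on simulated data. Differences are spheroid minus monolayer and were not tested, with 1 sample per culture. The spot SD (42 degrees of freedom) came from 6 control probes with 8 spots on both arrays, before quantile normalization. Blank spots gave a larger SD of 0.082. A median over an even number of members is the mean of the middle pair. RefSeq was used for gene names and neighbours only. Members, lists and the rule for named miRNAs (all members, their seed relatives, the neighbours of miR-424 and miR-503, the 3 largest differences of each list, and the 3 miRNAs nearest to the family median) were chosen with earlier results of these data known. A probe named miR-449 without a letter was not counted in a list.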

Additional observations from a re-analysis of the deposited data

How the results depend on the processing

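Of the 10 alternatives, subtraction of block blanks was chosen after seeing the data. The family median, 0.45 in the normalized values, was 0.54 with the blank mean subtracted, 0.53 with block blanks, 0.71 with median scaling, 0.80 without scaling, 0.78 deposited and 1.39 with the spike controls. The count of members higher in the spheroids was 4 in all settings but the spike controls, where it was 5. Of all 178 miRNAs, 44.9% were higher in the normalized values and 70.8% with the spike controls. In the other alternatives the share ran from 30.9% with the 75th percentile to 57.3% without scaling. The count of members 2-fold or more apart, 0 in the normalized values, was 1 (miR-503) with deposited values, blank mean subtracted or block blanks subtracted, and 5 after spike control scaling, where 27.0%, 27.0%, 29.2% and 42.1% of all 178 miRNAs were. For miR-15a with miR-16 the median was 0.54 with the blank mean subtracted, 0.53 with block blanks and with the 75th percentile, 0.81 with median scaling, 0.90 without scaling, 0.78 deposited and 1.39 with the spike controls. For miR-15b with miR-16 it was 0.71, 0.73, 0.82, 0.91, 0.86 and 1.47 in the same settings without the 75th percentile, and 0.63 with an offset of 16. For miR-195 with miR-497 it was -0.0015 with the 75th percentile, 0.37 without scaling, 0.35 deposited and 0.96 with the spike controls. For miR-424 with miR-503, which rests on miR-503 alone, it was -1.66 with the blank mean subtracted, -1.38 with block blanks, -0.48 with an offset of 16, -0.34 with median scaling, -0.62 with the 75th percentile, -1.72 deposited and -1.11 with the spike controls. miR-497 changed sign only with the spike controls, at 0.46. The cause of these shifts was not tested. With the limit at 5 SD, 5 members were detected on both arrays, and 4 of them were higher. The share of all miRNAs higher at that limit is not given here. Signal over background limits miR-497, miR-503 and miR-424, and the number of arrays limits every value.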
